A study of Mus musculus with 6 samples.

Results

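Serpins are a large family of proteins, most of which trap a serine protease by offering it a loop that the enzyme cuts and then cannot release. Together with Kunitz-type inhibitors, cystatins, the elastase inhibitor Slpi and the broad protease trap A2m, they set how far elastase, cathepsins, coagulation and complement proteases and plasmin can act outside and inside cells. The plasminogen activators Plat and Plau and the Plau receptor Plaur are the enzymes and docking site that several serpins act against. These genes were examined in As4.1, a clonal line from a kidney tumour of a mouse whose renin promoter drove the SV40 T antigen, after an interleukin, hydrogen peroxide or vehicle was given. Members were the probe sets of the array annotated to a single gene whose symbol starts with Serpin, or to Slpi, A2m, Plau, Plaur, Plat, Cst3, Cst6, Spint1, Spint2, Tfpi or Tfpi2, which gave 73 probe sets of 51 genes out of 45101 probe sets.

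Each of the 3 groups held 2 arrays, which per the series' description came from separate cultures of this line, and no group differed from the others by anything but the agent in the labels. The interleukin is not named further in the labels, and doses and times are not given in the sources used here. Values are MAS5 signals, a linear brightness per probe set scaled to the same trimmed mean of 1500.01 on all 6 arrays, and levels of different probe sets cannot be set against each other. The groups were compared in limma on log2 signals, and a probe set passed at a Benjamini-Hochberg adjusted p under 0.05 over the 22519 probe sets that were bright enough to be tested. Levels are arithmetic means ± SD and changes are fitted log2 differences ± SE, with n = 2 arrays per group throughout, and their number limits the precision. Groups of 2 arrays often did not overlap. Of all tested probe sets 27.6% were higher and 31.4% lower without overlap under interleukin than under vehicle. The shares were 29.8% and 25.6% under hydrogen peroxide against vehicle, and 21.8% and 30% for interleukin against hydrogen peroxide.

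Of 6 annotated markers of the smooth muscle, pericyte and renin cell lineage 4 were bright enough to be tested, and Des and Rgs5 were not. The summed signals of the 6, mostly those of Acta2 and Pdgfrb, were 24675 to 32091 under interleukin, 18818 to 19080 under hydrogen peroxide and 16611 to 17039 under vehicle. Of 5 hepatocyte markers none was bright enough to be tested, and their summed signals were 186.2 to 209.9, 219.8 to 230.6 and 109.4 to 193.4 in those groups. The 6 leukocyte and macrophage markers summed to 6342 to 7095 under interleukin, 4322 to 4540 under hydrogen peroxide and 3634 to 3724 under vehicle. The defining leukocyte marker Ptprc was dim on every array, at 43.1 and 125.7 under interleukin, 21.3 and 67.3 under hydrogen peroxide, and 25.1 and 48.0 under vehicle. The 6 endothelial markers, of which only Kdr was tested, summed to 8476 to 11919 under interleukin, 10874 to 11678 under hydrogen peroxide and 13492 to 15956 under vehicle, with Pecam1 at 48.7 or lower on every array. The 3 platelet markers, of which only Itga2b was tested, summed to 1790.3 to 1836, 1196.5 to 1622 and 1278 to 1324 in those groups, and the 7 epithelial markers to 893.5 to 1311, 1004 to 1014.5 and 1142 to 1283. The ratio of 3' to 5' beta-actin control signals was 1.46 and 1.55 under interleukin, 1.35 and 1.32 under hydrogen peroxide, and 1.22 and 1.26 under vehicle. The same ratio for Gapdh differed little, at 0.847 and 0.873, then 0.844 and 0.836, then 0.825 and 0.836 in those groups. The lineage and leukocyte sums and the beta-actin ratios were higher under both agents than under vehicle. The endothelial sum was lower under both, and the platelet sum was higher under interleukin. Single markers did not all follow their sums. Pdgfrb read 8500.5 and 7955.5 under hydrogen peroxide against 10045 and 9735 under vehicle, while Acta2 was higher there. The leukocyte sum was mostly Cd14. The lower endothelial sum was that of Kdr, while the dim Cdh5 and Tek were higher under interleukin than under vehicle. The part of these values in the results below was not tested. In bulk RNA a change in the share of cells that express a gene cannot be told apart from a change per cell. Renin is not analysed here.

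Of the 73 member probe sets, 23 probe sets of 16 genes were tested, and the mean vehicle signal of these 23 was 195.3 or higher. The lower limit of testing was a geometric mean of 193.7 over the 6 arrays. Just below it lay a probe set of Spint2 (193.5) and Serpinb1b (181.2), and the dimmest members above it were probe sets of Tfpi (239.4) and Spint1 (253.8). By class, 6 of 18 genes of clade B, which are mostly intracellular serpins, were tested, and so were 3 of 8 serpins of other clades. Testing also covered 5 of 8 inhibitors that are not serpins, and 2 of 3 genes of the plasminogen activators and their receptor. Of 14 clade A genes, which include the secreted relatives of alpha-1-antitrypsin, none was tested, because their mean signals lay below the limit.

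Interleukin raised members of several classes, with the largest fold among the tested ones in the elastase inhibitor Slpi, and no tested member passed as lower. Against vehicle 9 of 23 tested member probe sets rose and 0 fell in limma. At an unadjusted p under 0.05 the counts were 11 and 1. The share of all tested probe sets at that unadjusted threshold is not given here, so these counts are not set against it. Over all tested probe sets 16.1% passed in this comparison, 7.58% higher and 8.52% lower. The 9 belonged to Slpi, Serping1, Serpinb1a, Serpinf1, Serpinb6b, Serpinb6e and Plat. The median log2 change was 0.46 over the tested members and -0.02 over all tested probe sets. Hydrogen peroxide had 2 higher and 2 lower of 23, with 5.69% of all tested probe sets passing (3.05% higher and 2.65% lower). With each array centred on its 75th percentile, 602 probe sets were higher and 879 lower, in place of 686 and 596. Its member calls were Serpinf1, which rose on both its probe sets, and Slpi and A2m, which fell. The median log2 change was 0.04 over the members and 0.02 over all tested probe sets.

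**Figure D1:**
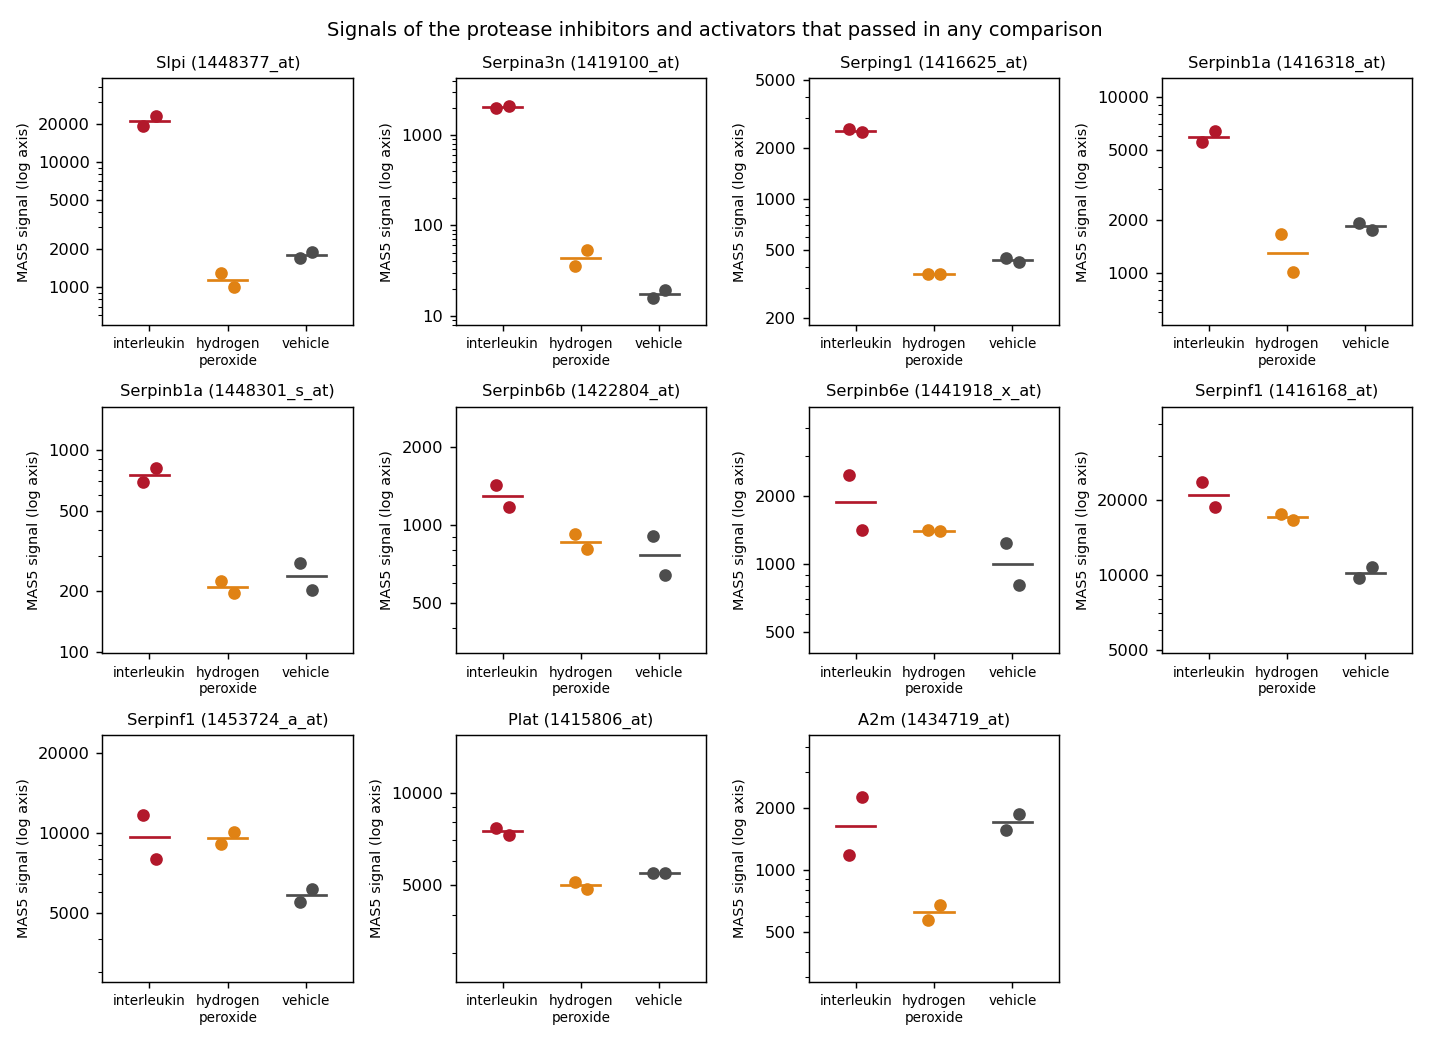
MAS5 signal (log axis) of the 11 member probe sets that passed in any comparison (Serpina3n in the fit without a signal limit), for interleukin, hydrogen peroxide and vehicle arrays from left to right; points are single arrays and bars are geometric means of 2 arrays. Slpi, Serping1 and Serpinb1a stand apart under interleukin, A2m is lowest under hydrogen peroxide, and Serpinf1 is higher under both agents than under vehicle.

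Slpi encodes the secretory leukocyte protease inhibitor, which blocks neutrophil elastase and cathepsin G. Its signals were 19584 and 23297 in interleukin cultures, 1301 and 1000.1 in hydrogen peroxide cultures, and 1711 and 1908 in vehicle cultures. The 3 groups did not overlap, with interleukin far above vehicle and hydrogen peroxide below it. Under interleukin Slpi rose 11.8-fold, a log2 change of 3.56 ± 0.15 (limma adjusted p = 3.61e-07). Under hydrogen peroxide it fell by 0.66 ± 0.15 on the log2 scale (adjusted p = 0.0322). The lower level with hydrogen peroxide did not pass without vehicle array 1 (adjusted p = 0.107), vehicle array 2 (0.214) or hydrogen peroxide array 2 (0.143), nor without the signal limit (0.0586). Between the agents Slpi was 18.7-fold higher with interleukin (adjusted p = 1.37e-07).

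Serpina3n encodes a secreted acute-phase serpin, and its probe set was below the limit of testing because it was dim without interleukin. The signals were 1996 and 2111 in interleukin cultures, 35.4 and 53.3 in hydrogen peroxide cultures, and 15.9 and 19.4 in vehicle cultures. The interleukin arrays agreed closely, and all other arrays lay below the median signal of an array, which was 192.2 to 232.3. In the fit of all 45037 probe sets without a signal limit, where 5.98% passed between interleukin and vehicle, Serpina3n rose by 6.87 ± 0.57 on the log2 scale (limma adjusted p = 0.000101). That is 116.9-fold, but the size rests on dim vehicle signals, and with 32 added to each signal it was 42.01-fold (adjusted p = 0.000107). Against hydrogen peroxide the log2 difference was 5.56 ± 0.57 (adjusted p = 0.000491), which did not pass without the trend of the spread on signal (adjusted p = 0.0688). Hydrogen peroxide itself had a log2 change of 1.31 ± 0.57 against vehicle that did not pass (adjusted p = 0.333).

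The upstream sequences of Slpi and Serpina3n, the members with the largest fold under interleukin, are shown with those of Serpina3i, a neighbouring relative that stayed dim, and of Serpinf1, which rose under both agents. Each is the 250 bases before the gene's start from RefSeq, build GRCm38.p6, and capitals mark matches to the motifs given next.
Slpi, chr2:164356508-164356757, minus strand: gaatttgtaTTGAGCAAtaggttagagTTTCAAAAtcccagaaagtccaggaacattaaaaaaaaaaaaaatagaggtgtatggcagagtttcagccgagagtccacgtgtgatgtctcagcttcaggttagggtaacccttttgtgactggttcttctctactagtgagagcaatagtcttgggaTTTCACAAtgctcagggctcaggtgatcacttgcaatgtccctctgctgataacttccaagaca
Serpina3n, chr12:104406458-104406707, plus strand: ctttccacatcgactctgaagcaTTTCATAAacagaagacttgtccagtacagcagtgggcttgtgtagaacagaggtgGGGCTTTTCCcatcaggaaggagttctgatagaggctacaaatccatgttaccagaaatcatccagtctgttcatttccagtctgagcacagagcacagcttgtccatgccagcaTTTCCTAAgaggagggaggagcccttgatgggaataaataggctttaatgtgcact
Serpina3i, chr12:104262872-104263121, plus strand: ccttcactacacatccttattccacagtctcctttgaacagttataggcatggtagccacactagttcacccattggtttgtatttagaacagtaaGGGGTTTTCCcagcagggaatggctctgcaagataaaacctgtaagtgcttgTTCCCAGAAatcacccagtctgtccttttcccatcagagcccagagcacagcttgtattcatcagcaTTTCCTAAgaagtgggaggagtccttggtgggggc
Serpinf1, chr11:75422624-75422873, minus strand: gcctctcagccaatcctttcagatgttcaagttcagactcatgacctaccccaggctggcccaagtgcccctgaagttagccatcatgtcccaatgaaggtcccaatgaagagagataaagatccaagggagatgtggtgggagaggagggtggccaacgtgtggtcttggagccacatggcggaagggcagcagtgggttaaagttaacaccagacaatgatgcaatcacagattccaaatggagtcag

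The motifs searched on both strands were a form of the NF-kappaB site (GGG and TTTCC with any 2 bases between them), TTNNGNAA as a form of the C/EBP site, and TTCNNNGAA as the core of a STAT site. Of 32851 such windows over the genome's genes, 1.41% held the first, 36.8% the second and 7.02% the third. Serpina3n held GGGCTTTTCC at 171 to 162 bases before its start and 2 matches to the C/EBP form. Slpi held 3 matches to the C/EBP form and none to the others. Serpina3i held GGGGTTTTCC at 154 to 145 bases before its start and 1 match to each of the others. Serpinf1 held none of the 3 motifs in this window. Windows were listed for 41 of the 51 member genes, 50 windows in all, of which 2 held the NF-kappaB form, 31 the C/EBP form and 7 the STAT form. No matches overlapped in the 4 windows shown, and a match describes letters and not a bound site. The Serpina3i signals were 160.3 and 124.6 under interleukin, 45.3 and 38.6 under hydrogen peroxide, and 61.3 and 68.4 under vehicle, and its change under interleukin did not pass (log2 1.13 ± 0.70, adjusted p = 0.452 in the fit without a signal limit).

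Serping1 encodes C1 inhibitor, the serpin that holds back the complement proteases C1r and C1s and plasma kallikrein. It had signals of 2569.8 and 2468 in interleukin cultures, 363.5 and 362.8 in hydrogen peroxide cultures, and 451.2 and 423.3 in vehicle cultures. Interleukin lay above both other groups with a narrow spread between arrays. Serping1 rose 5.76-fold under interleukin against vehicle (log2 2.53 ± 0.18, adjusted p = 1.15e-05) and was 6.93-fold higher with interleukin than with hydrogen peroxide (adjusted p = 7.66e-06). Under hydrogen peroxide its log2 change was -0.27 ± 0.18 and did not pass (adjusted p = 0.422). The C1 proteases that it inhibits are in the list of proteases described below.

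Serpinb1a is an intracellular inhibitor of neutrophil elastase, cathepsin G and proteinase 3. Its brighter probe set read 5552 and 6388 under interleukin, 1660 and 1011 under hydrogen peroxide, and 1924 and 1760 under vehicle. The dimmer probe set, whose suffix marks that it can match several transcripts, read 691.4 and 818.7, then 225.7 and 196.8, then 276.0 and 203.4 in those groups. On both probe sets the interleukin arrays were above all others. The log2 changes against vehicle were 1.69 ± 0.20 (adjusted p = 0.000391) and 1.67 ± 0.29 (adjusted p = 0.00354), or 3.24-fold and 3.17-fold. Between interleukin and hydrogen peroxide they were 2.20 ± 0.20 and 1.84 ± 0.29 (adjusted p = 8.65e-05 and 0.0032). Under hydrogen peroxide the log2 changes were -0.51 and -0.17, and neither passed (adjusted p = 0.175 and 0.784). On the brighter probe set the change was -0.86 and passed without hydrogen peroxide array 1 (adjusted p = 0.0354), and was -0.15 without array 2 (adjusted p = 0.682).

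Serpinb6b and Serpinb6e are close relatives of Serpinb6a, an intracellular serpin whose human counterpart inhibits cathepsin G. Serpinb6b read 1432 and 1171 under interleukin, 925.1 and 807.0 under hydrogen peroxide, and 911.7 and 640.1 under vehicle. It rose 1.70-fold against vehicle (log2 0.76 ± 0.21, adjusted p = 0.0336). Serpinb6e read 2485 and 1422 under interleukin, 1415 and 1402 under hydrogen peroxide, and 1238 and 807.2 under vehicle, and it rose 1.88-fold (log2 0.91 ± 0.26, adjusted p = 0.0399). The interleukin arrays and the vehicle arrays lay far apart within their groups in both genes, and the calls rest on single arrays. Without vehicle array 2 the log2 changes were 0.51 and 0.60 (adjusted p = 0.249 and 0.271), and without interleukin array 1 they were 0.62 and 0.51 (adjusted p = 0.161 and 0.234). Neither passed without the signal limit (adjusted p = 0.067 and 0.0807), and the Serpinb6e probe set can match several transcripts. Serpinb6a itself read 31124 and 33479 under interleukin, 38025 and 35990.2 under hydrogen peroxide, and 35174 and 36655 under vehicle. Its log2 changes of -0.15 ± 0.07 and 0.04 ± 0.07 did not pass (adjusted p = 0.195 and 0.785).

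The other tested clade B genes were Serpinb9, an inhibitor of granzyme B, and its relative Serpinb9b. The brighter Serpinb9 probe set averaged 2726 ± 205.6 under interleukin, 2348 ± 88.0 under hydrogen peroxide and 2350.0 ± 67.5 under vehicle, and no comparison passed on either probe set. The dimmer read 824.2 and 898.6 under interleukin, 750.7 and 621.5 under hydrogen peroxide, and 843.9 and 624.1 under vehicle. Serpinb9b read 386.6 and 417.4 under interleukin, 312.7 and 371.1 under hydrogen peroxide, and 229.5 and 206.2 under vehicle. Both agents lay above vehicle without overlap, as 27.6% of all tested probe sets did under interleukin and 29.8% under hydrogen peroxide. The log2 changes of 0.88 ± 0.29 and 0.65 ± 0.29 did not pass (limma adjusted p = 0.0611 and 0.214). Serpinb1b, just below the limit of testing, read 388.1 and 303.6, then 171.9 and 165.3, then 75.7 and 139.8 in those groups. Its log2 change under interleukin was 1.74 ± 0.47 and did not pass in the fit without a limit (adjusted p = 0.0631).

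**Figure D2:**
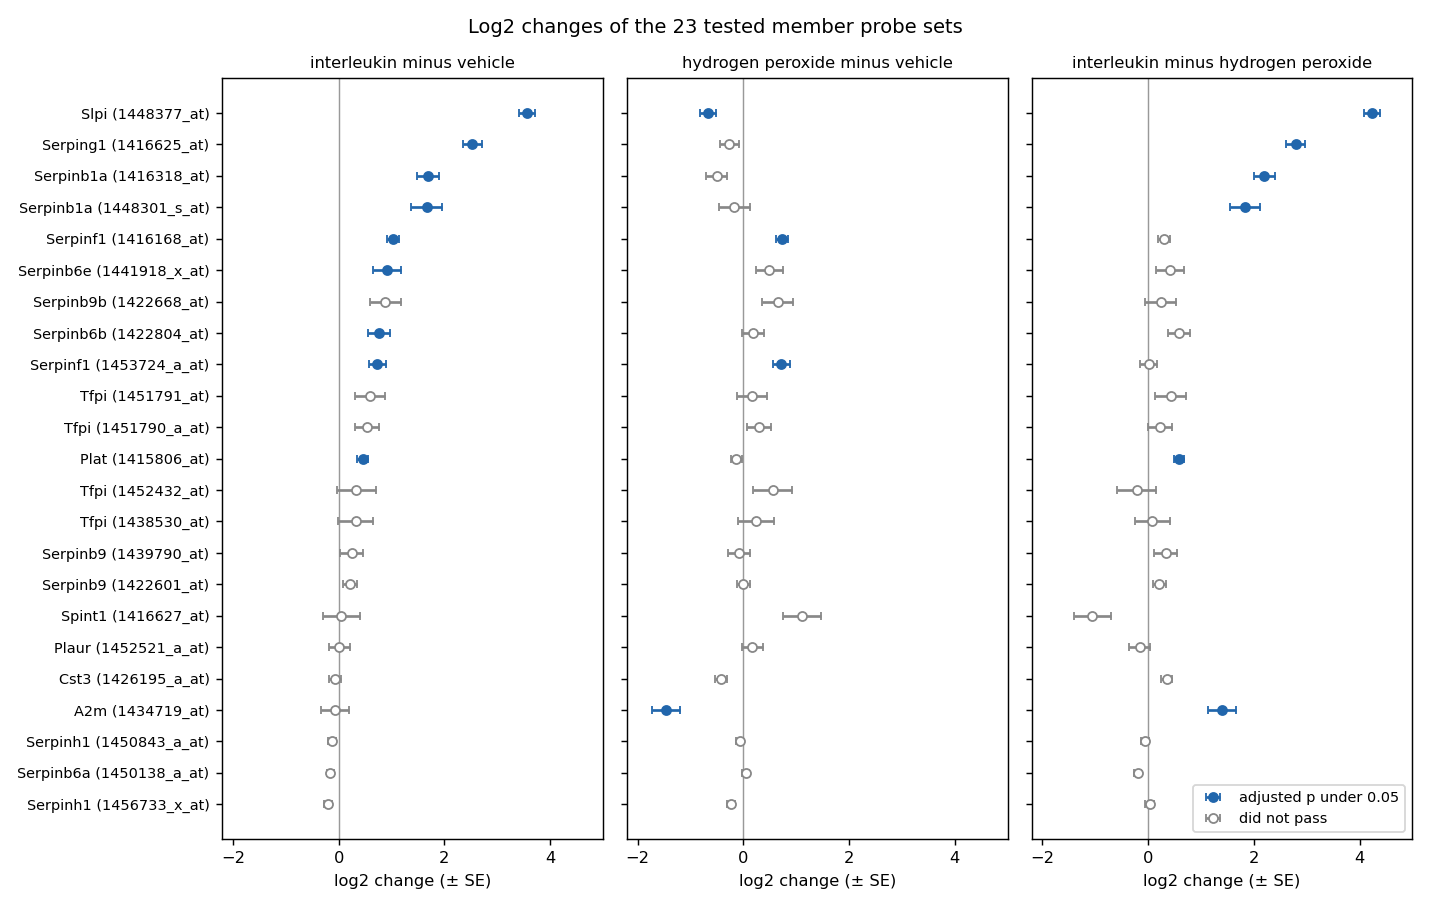
Fitted log2 change (± SE, 2 arrays per group) of the 23 tested member probe sets in the 3 comparisons, ordered by the change under interleukin; filled points passed at an adjusted p under 0.05. Of these, 9 passed between interleukin and vehicle, 4 between hydrogen peroxide and vehicle and 6 between interleukin and hydrogen peroxide.

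Serpinf1, known as pigment epithelium-derived factor, is a secreted serpin that does not inhibit proteases and restrains blood vessel growth. Its brighter probe set read 23483 and 18664 under interleukin, 17495 and 16521 under hydrogen peroxide, and 9702 and 10736 under vehicle. The second probe set read 11707 and 8003 under interleukin, 9086 and 10079 under hydrogen peroxide, and 5497 and 6166 under vehicle. Its suffix marks that it can match several transcripts. Both agents lay above vehicle on both probe sets, and the interleukin arrays differed more from each other than the hydrogen peroxide arrays did. Under interleukin Serpinf1 rose by 1.04 ± 0.11 and 0.73 ± 0.16 on the log2 scale (adjusted p = 0.000215 and 0.0107). The second value moved to 0.46 when interleukin array 1 was left out and 1.01 when array 2 was, and it did not pass without vehicle array 1 (adjusted p = 0.09). Under hydrogen peroxide it rose by 0.74 ± 0.11 and 0.72 ± 0.16 (adjusted p = 0.00584 and 0.0271). The first of these did not pass without vehicle array 1 (adjusted p = 0.0663). The second did not pass without any single array of the compared groups (adjusted p = 0.0823 to 0.17) or without the signal limit (0.0581). Between the agents the log2 differences were 0.30 ± 0.11 and 0.02 ± 0.16 (adjusted p = 0.136 and 0.965), and both comparisons with vehicle share its arrays.

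Serpinh1 encodes Hsp47, a collagen chaperone of the endoplasmic reticulum that, like Serpinf1, does not inhibit proteases. Its brighter probe set read 38871 and 38324 under interleukin, 41910.5 and 38374 under hydrogen peroxide, and 42596 and 41705 under vehicle. The other read 28991 and 28289 under interleukin, 29616 and 26552 under hydrogen peroxide, and 32514 and 33153 under vehicle. Both have suffixes marking that they can match several transcripts. On both probe sets the vehicle arrays lay above the interleukin arrays by a small margin. All fitted log2 changes lay between -0.23 and 0.03, and none of the 3 comparisons passed on either probe set (adjusted p = 0.117 to 0.859).

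A2m encodes alpha-2-macroglobulin, a large secreted protein that traps proteases of many classes. It read 1183 and 2271 in interleukin cultures, 570.3 and 677.8 in hydrogen peroxide cultures, and 1571 and 1885 in vehicle cultures. The hydrogen peroxide arrays lay below all others, and the interleukin arrays fell on either side of the vehicle arrays. Under hydrogen peroxide A2m fell by 1.47 ± 0.27 on the log2 scale (adjusted p = 0.0118). This call was lost without vehicle array 1 (adjusted p = 0.0602), vehicle array 2 (0.104) or hydrogen peroxide array 1 (0.0715), with log2 changes of -1.60, -1.34 and -1.34. Under interleukin its log2 change was -0.07 ± 0.27 (adjusted p = 0.889). It was 2.64-fold higher with interleukin than with hydrogen peroxide (log2 1.40 ± 0.27, adjusted p = 0.00857), and that difference became 1.87 with interleukin array 1 left out and 0.93 with array 2 left out. Without the trend of the spread on signal neither this difference nor the fall under hydrogen peroxide passed (limma adjusted p = 0.088 and 0.113).

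Cst3, the secreted cysteine protease inhibitor cystatin C, read 20256 and 23150.2 under interleukin, 18712 and 15399 under hydrogen peroxide, and 24003 and 21438 under vehicle. The hydrogen peroxide arrays were the lowest. The log2 change of -0.42 ± 0.11 narrowly missed the threshold (adjusted p = 0.055), and it passed when each array was centred on its 75th percentile (adjusted p = 0.0438). It did not pass in 9 of 14 alternative fits, and over all 14 it ranged from -0.56 to -0.28. Spint1, a membrane-bound Kunitz inhibitor of the activator of hepatocyte growth factor, read 172.4 and 235.7 under interleukin, 434.8 and 400.8 under hydrogen peroxide, and 243.1 and 155.3 under vehicle. Hydrogen peroxide lay above both other groups, but the log2 change of 1.10 ± 0.36 did not pass (adjusted p = 0.0993). The related Spint2 was below the limit of testing, and its brighter probe set read 204.5 and 169.3, then 314.9 and 235.5, then 116.2 and 176.1 in those groups.

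Tfpi, which inhibits tissue factor and factor Xa at the start of coagulation, had 4 tested probe sets. Their log2 changes were 0.32 to 0.60 under interleukin and 0.17 to 0.55 under hydrogen peroxide, all above 0, and none passed. The brightest read 847.0 and 711.3 under interleukin, 756.1 and 574.9 under hydrogen peroxide, and 472.9 and 606.3 under vehicle, and its change under interleukin was 0.54 ± 0.23 (adjusted p = 0.143). Both interleukin arrays lay above both vehicle arrays on this probe set, and the hydrogen peroxide arrays overlapped with vehicle. The second read 522.5 and 410.5, then 337.2 and 352.2, then 362.3 and 259.2 in those groups. The third read 362.3 and 247.8, then 279.3 and 286.1, then 277.8 and 206.7. The dimmest read 246.4 and 245.9, then 219.2 and 373.3, then 181.6 and 209.1, with both agents above vehicle. Tfpi2 was dim on every array, at 89.1 and 110.0 under interleukin, 37.6 and 3.0 under hydrogen peroxide, and 36.1 and 91.4 under vehicle.

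Among the plasminogen activators, Plat, the tissue-type enzyme that converts plasminogen to plasmin, rose modestly under interleukin. It read 7675 and 7283 in interleukin cultures, 5125 and 4839 in hydrogen peroxide cultures, and 5448 and 5463 in vehicle cultures. The interleukin arrays lay above all others. The log2 change against vehicle was 0.45 ± 0.10, or 1.37-fold (adjusted p = 0.0122), and against hydrogen peroxide 0.59 ± 0.10 (adjusted p = 0.00493). Neither difference passed without the trend of the spread on signal (limma adjusted p = 0.0642 and 0.0579). The first was not called without vehicle array 1 (adjusted p = 0.0887) or vehicle array 2 (0.0874), and the second without hydrogen peroxide array 2 (0.0533). A second Plat probe set was too dim to be tested, at 100.1 and 100.6 under interleukin, 23.4 and 60.9 under hydrogen peroxide, and 22.9 and 40.4 under vehicle. Plaur, the receptor of the urokinase-type activator, read 713.7 and 956.2 under interleukin, 835.7 and 1019.6 under hydrogen peroxide, and 837.2 and 803.4 under vehicle, with overlapping groups and no call. Plau, that activator itself, was dim on both probe sets. Its brighter probe set read 48.6 and 197.2 under interleukin, 82.6 and 55.6 under hydrogen peroxide, and 92.8 and 131.4 under vehicle. The other read 3.9 and 11.5, then 56.3 and 2.6, then 72.0 and 1.9 in those groups.

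Between interleukin and hydrogen peroxide 6 of 23 tested member probe sets were higher and 0 lower in limma. At an unadjusted p under 0.05 the counts were 9 and 2, again without the share of all tested probe sets at that threshold. Over all tested probe sets 8.82% passed, 4.95% higher and 3.87% lower. The 6 belonged to Slpi, Serping1, Serpinb1a, A2m and Plat. The median log2 difference was 0.30 over the members and -0.05 over all tested probe sets.

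The untested members were 50 probe sets, of which 49 belonged to 35 genes without any tested probe set and 1 to Plat. Apart from Serpina3n, the 49 others had signals of 2.1 to 388.1 under interleukin, 1.4 to 326.9 under hydrogen peroxide and 1.2 to 198.1 under vehicle. Of 294 such values 220 lay below 100. None of these 49 passed in any comparison of the fit without a signal limit, where 5.98%, 1.69% and 3.24% of all probe sets passed between interleukin and vehicle, hydrogen peroxide and vehicle, and interleukin and hydrogen peroxide. Those shares include the probe sets bright enough to be tested, and the shares over untested ones alone are not given here. Their lowest adjusted p-values were 0.0631, 0.204 and 0.195. Their median signal was 40.5 and 71.3 under interleukin, 38.5 and 43.6 under hydrogen peroxide, and 31.7 and 44.6 under vehicle. The higher value of interleukin array 2 went with a lower quartile of 69.2 over all its probe sets, against 47.9 to 54.0 on the other arrays.

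These dim clade A genes were Serpina1b, Serpina1c and Serpina1f, relatives of alpha-1-antitrypsin, Serpina3a and Serpina3i, the pseudogene Serpina4-ps1, Serpina5, the protein C inhibitor, and the hormone carriers Serpina6 and Serpina7. Serpina9, Serpina10, which inhibits factor Xa with protein Z, Serpina11 and Serpina12, called vaspin, completed them. The dim clade B genes were Serpinb1b, Serpinb2, an inhibitor of plasminogen activators, Serpinb3a, Serpinb5, called maspin, Serpinb6c, Serpinb7, Serpinb8, Serpinb9c, Serpinb9d, Serpinb9g, Serpinb11 and Serpinb12. Of the other clades Serpinc1 (antithrombin), Serpind1 (heparin cofactor II), Serpinf2 (alpha-2-antiplasmin), Serpini1 (neuroserpin) and Serpini2 were dim, as was the cystatin Cst6. The 4 Serpinb5 probe sets disagreed, with log2 changes under interleukin of 3.06, 0.31, -2.57 and -0.56 that did not pass (adjusted p = 0.0885 to 0.916). Cst6 had a log2 change of 2.89 under hydrogen peroxide, with signals of 299.7 and 216.5 against 17.6 and 67.2 under vehicle, and did not pass (adjusted p = 0.246).

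Many of these genes lie in runs of serpins with no other protein-coding gene between them in the RefSeq table. In the run that holds the Serpina genes 13 of 24 serpin genes were measured, and the others had no member probe set. Of the measured ones Serpina3n alone passed in the fit without a signal limit. In that fit 5.98% of all probe sets, including those bright enough to be tested, passed between interleukin and vehicle. In the run of Serpinb1, Serpinb6 and Serpinb9 genes 11 of 16 serpin genes were measured and 6 tested. Of these 6, Serpinb1a, Serpinb6b and Serpinb6e passed under interleukin, a comparison in which 16.1% of all tested probe sets passed. The Serpinb6b and Serpinb6e calls were lost without single arrays or the signal limit, as given above. Their tested neighbours Serpinb9, Serpinb9b and Serpinb6a did not pass. The run from Serpinb5 to Serpinb8 had 7 of its 12 serpin genes measured and none tested, and of the neighbours Serpinf1 and Serpinf2 only Serpinf1 was tested.

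**Figure D3:**
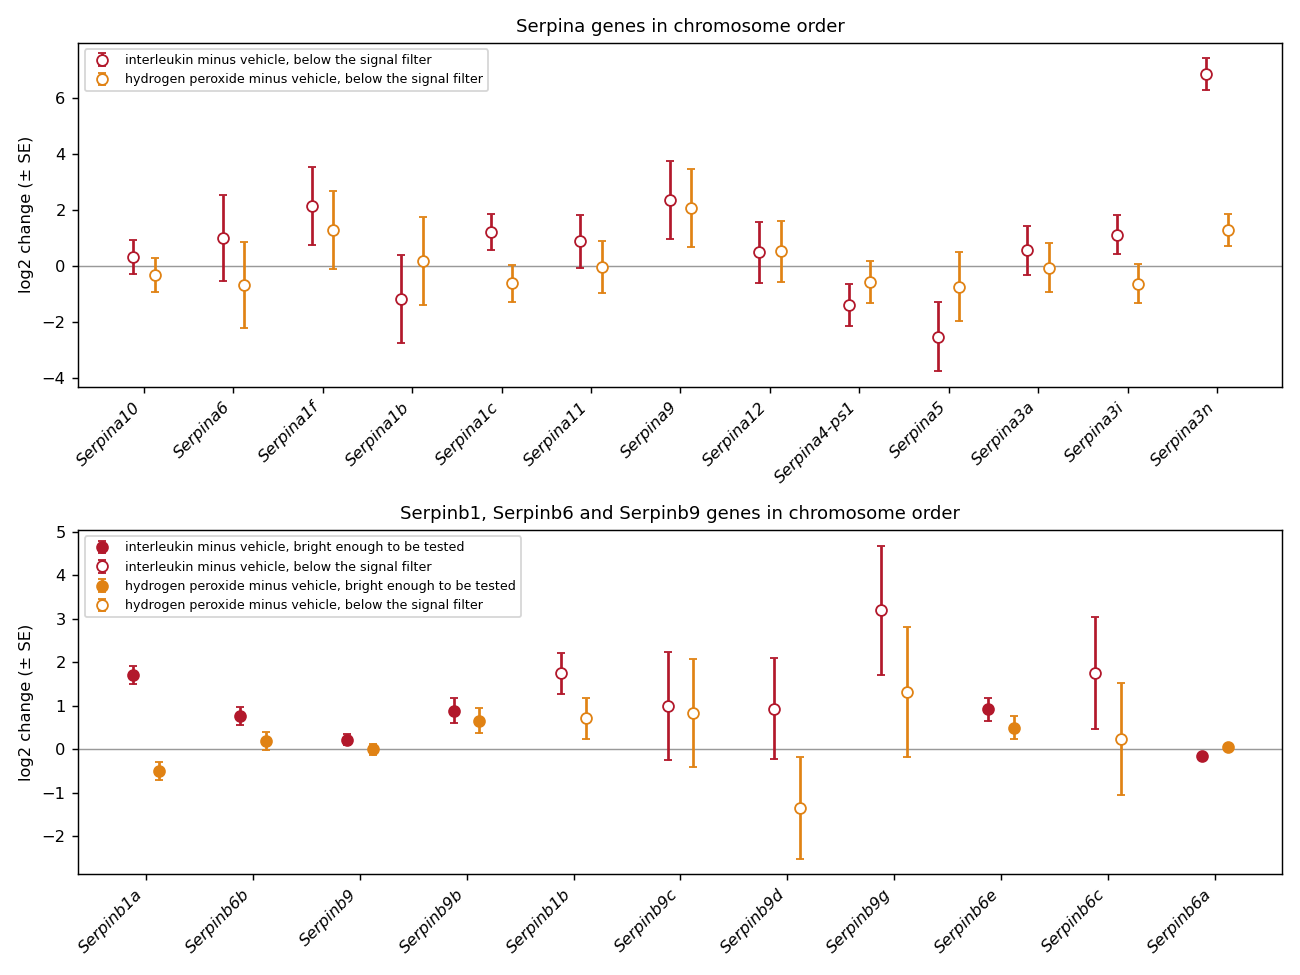
Log2 change (± SE, 2 arrays per group) under interleukin and hydrogen peroxide against vehicle for member genes in chromosome order, each on its brightest probe set; open points are below the signal limit and come from the fit without it. Serpina3n stands apart from the 12 dim Serpina neighbours that were measured. In the lower panel Serpinb1a rose under interleukin while the tested Serpinb9 (0.21) and Serpinb6a (-0.15) did not pass.

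Genes that these inhibitors act on, or act beside, were followed in 4 lists, with each gene read on its brightest probe set. Among genes called below, the probe sets of Anxa2, C1s1, Cstb, Ctsl, F2r, Itgb5, Klk1, Masp1 and S100a10 can match several transcripts by their suffix. Of 14 tested proteases, all of the serine or cysteine type apart from Ctsd, 5 rose and 1 fell under interleukin, with a median log2 change of 0.32. Over all tested probe sets 7.58% were higher and 8.52% lower in that comparison, with a median of -0.02. The targets of C1 inhibitor were among them, as C1ra rose 3.27-fold (18754 ± 413.0 under interleukin and 5730.4 ± 203.7 under vehicle) and C1s1 2.23-fold (20076 ± 2479 and 8971 ± 435.4). Ctsl, a lysosomal cysteine protease, rose by 0.74 ± 0.11 on the log2 scale, and Ctsh, another cathepsin, fell by 0.85 ± 0.14. Under hydrogen peroxide 1 rose and 2 fell of the 14, with a median of 0.13, where 3.05% of all tested probe sets were higher and 2.65% lower, with a median of 0.02. Ctsl rose by 0.63 ± 0.11 and Ctsh fell by 1.01 ± 0.14, while C1s1 fell by 0.42 ± 0.10 (adjusted p = 0.0121, 0.0032 and 0.0414).

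Of 10 tested protease inhibitors outside the serpins and their companions 5 rose and 1 fell under interleukin, with a median log2 change of 0.54 (all tested probe sets: 7.58% higher, 8.52% lower, median -0.02). Timp1, which inhibits matrix metalloproteinases, rose 2.14-fold, and Cstb, an intracellular cystatin, rose by 0.47 ± 0.07 on the log2 scale. Reck, a membrane-anchored inhibitor of matrix metalloproteinases, rose by 0.73 ± 0.16, and Timp2 fell by 0.75 ± 0.07. Under hydrogen peroxide 1 rose and 1 fell, with a median of 0.15 (all tested probe sets: 3.05% higher, 2.65% lower, median 0.02). These were Reck, which rose by 0.85 ± 0.16 (adjusted p = 0.0132), and Timp2, which fell by 0.54 ± 0.07 (adjusted p = 0.00244).

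In the plasminogen system list 2 of 12 tested genes rose and 2 fell under interleukin, with a median log2 change of 0.04. For this list and the coagulation list the shares over all tested probe sets were again 7.58% higher and 8.52% lower under interleukin, and 3.05% higher and 2.65% lower under hydrogen peroxide. S100a10 and Anxa2, which form a cell surface receptor for plasminogen and Plat, fell by 0.51 ± 0.08 and 0.31 ± 0.08 (adjusted p = 0.00183 and 0.0244). The integrin subunit Itgb5 and Masp1, a complement protease, rose by 0.50 ± 0.11 and 0.45 ± 0.12 (adjusted p = 0.0133 and 0.0284). Under hydrogen peroxide 0 rose and 2 fell, with a median of -0.27, namely Anxa2 (-0.34 ± 0.08, adjusted p = 0.0363) and Masp1 (-0.50 ± 0.12, adjusted p = 0.0391). In the coagulation list 2 of 8 tested genes rose and 1 fell under interleukin, with a median of 0.42, and 1 rose and 1 fell under hydrogen peroxide, with a median of 0.49. Both medians include Kng1, described below, and F2rl2, and the interleukin count includes Kng1. F2rl2 did not pass. Its geometric mean lay below the signal limit under vehicle (176.2) but not under interleukin (270.3) or hydrogen peroxide (296.2). Thbd, the thrombin receptor thrombomodulin, averaged 7919 ± 342.7 under interleukin, 10660.4 ± 659.2 under hydrogen peroxide and 15826 ± 222.4 under vehicle, and fell 1.999-fold under interleukin (adjusted p = 6.36e-05) and 1.49-fold under hydrogen peroxide (adjusted p = 0.0067). Pros1, the anticoagulant protein S, rose by 1.05 ± 0.24 and 1.02 ± 0.24 under interleukin and hydrogen peroxide (adjusted p = 0.0138 and 0.0353). Kng1, the kininogen that kallikreins cut, read 1725 and 2057 under interleukin, 75.5 and 183.7 under hydrogen peroxide, and 22.7 and 196.3 under vehicle, and it was the other call under interleukin. It entered the test only through its interleukin signals, since the geometric means under hydrogen peroxide (117.8) and vehicle (66.75) lay below the signal limit, so it had to differ. Its fold was 28.2 and became 17.1 with 32 added to each signal.

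**Figure D4:**
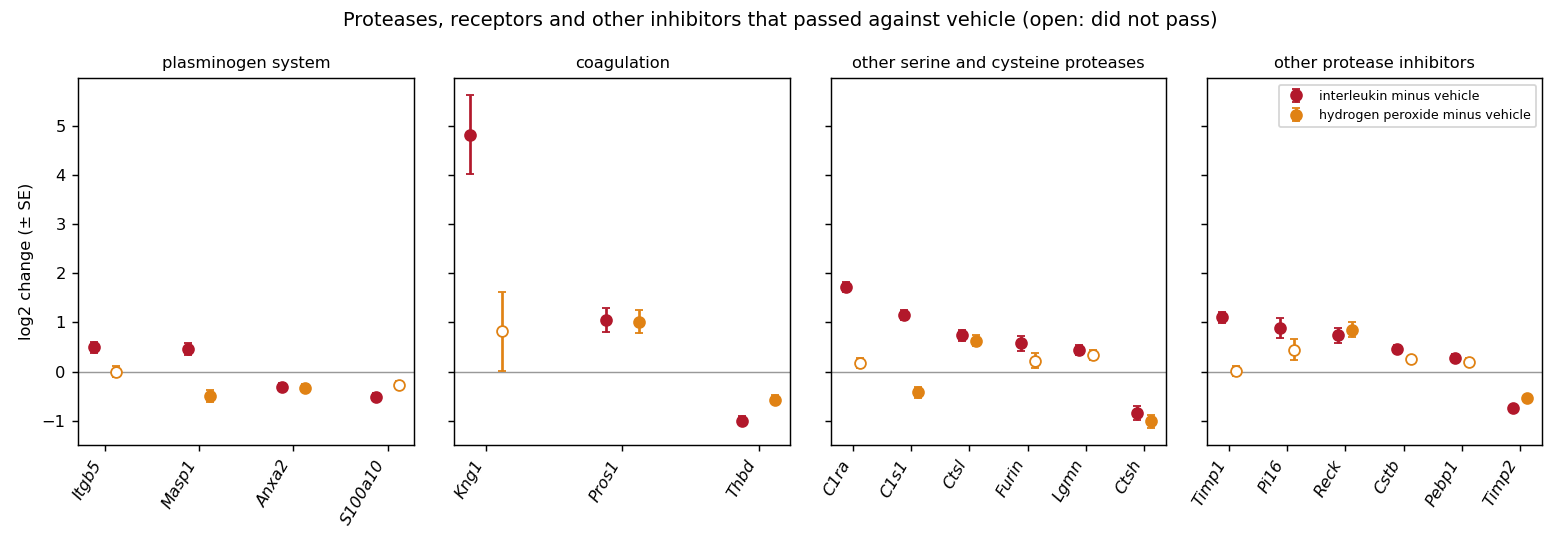
Log2 change (± SE, 2 arrays per group) against vehicle of the listed proteases, receptors and further inhibitors that passed under interleukin or hydrogen peroxide; filled points passed at an adjusted p under 0.05. C1ra and C1s1 are higher under interleukin, and Thbd, Ctsh and Timp2 are lower under both agents.

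Between interleukin and hydrogen peroxide the proteases C1s1 and C1ra were 2.99-fold and 2.92-fold higher with interleukin, and Klk1, a kallikrein, was lower by a log2 difference of -0.88 ± 0.23 (adjusted p = 0.0413). Timp1 was 2.13-fold higher, and it was the only call of its list. In the plasminogen list 3 of 12 were higher, where 4.95% of all tested probe sets were higher and 3.87% lower, namely Masp1, Itgb5 and Lrp1, the endocytic receptor that clears protease and inhibitor complexes (log2 0.71 ± 0.16, adjusted p = 0.0216). In the coagulation list Thbd and F2r, a thrombin-activated receptor, were lower. Kng1, the call in the other direction, had entered the test only through its interleukin signals. The 4 lists and the members were chosen with earlier results of these data known, so their counts are descriptions.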

How the data were processed

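Total RNA of 6 cultures was hybridised to Affymetrix mouse genome arrays. The deposited values are MAS5 intensities per probe set on a linear scale, made with MAS5 per the submitters' processing notes, and each array has the same trimmed mean. Its version is not stated in these sources, and detection calls were not used. Scaling to a common mean gives levels relative to the rest of the array.

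Log2 intensities, with no pseudocount, were fitted by limma (version 3.58.1, R 4.3.3). All 6 arrays entered 1 fit with a trend of the spread on signal, and p-values were adjusted by Benjamini-Hochberg over 22519 probe sets. These were the probe sets with a mean log2 signal at or above the median, after 64 controls were left out. Dimmer members were taken from a fit of all 45037 probe sets. The fit was tested on simulated data.

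A gene was named where a probe set had 1 symbol (34958 probe sets), and 932 with several symbols were not named. Signals on all arrays are given for members that passed in any comparison and for preset key members, and up to 4 genes per list by smallest p. Members and lists were chosen with earlier results of these data known. The alternatives changed scaling, pseudocount, signal limit, trend, arrays and probe sets.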

Additional observations from a re-analysis of the deposited data

How the results depend on the processing

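Of 21 member log2 changes that passed, 10 passed under every alternative run, and 6 of the 51 that did not pass did so under some alternative, and none changed direction in a called value. Without the trend of the spread on signal, 1783, 57 and 716 probe sets passed between interleukin and vehicle, hydrogen peroxide and vehicle, and interleukin and hydrogen peroxide. In that limma fit 0 members passed between hydrogen peroxide and vehicle. There 7 had an unadjusted p under 0.05, a count without the share of all tested probe sets at that threshold. With the stricter signal limit 10 member probe sets were tested, in place of 23. Of these, 5 passed between interleukin and vehicle and 3 between interleukin and hydrogen peroxide. Over all probe sets of that fit 2622 and 1727 passed in these comparisons. Between hydrogen peroxide and vehicle 762 probe sets and 2 members passed without a signal limit. Without those that can match several transcripts 825 probe sets and 3 members passed. The latter fit held fewer probe sets, and 14 members in place of 23. The causes of the other shifts were not tested.

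With single arrays left out, 1554 to 3583 probe sets and 6 to 9 members passed between interleukin and vehicle, lowest without vehicle array 1 (1554) and array 2 (1573). Between hydrogen peroxide and vehicle the ranges were 235 to 1751 and 0 to 5, with 235, 265, 391 and 675 probe sets without vehicle array 1, vehicle array 2, hydrogen peroxide array 1 and array 2. The lowest member count was in the limma fit without vehicle array 1. Between interleukin and hydrogen peroxide they were 839 to 1919 and 5 to 7, lowest without hydrogen peroxide array 2 (839). A group left with 1 array is assumed to vary like the others.

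The labels give arrays of the same number no shared origin, and their deviations between hydrogen peroxide and vehicle, interleukin and vehicle, and interleukin and hydrogen peroxide correlated at 0.11, 0.05 and -0.13. With the replicate block 3342, 1170 and 1756 probe sets and 9, 3 and 6 members passed, and Slpi had an adjusted p of 0.0512 in limma between hydrogen peroxide and vehicle. Signals near background limit the dim members, for which no detection calls were used.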
